A study of Mus musculus with 2 samples.

Results

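Malat1-rich barcodes, cell barcodes in which the nuclear RNA Malat1 made up at least 10% of all UMIs (unique molecular identifiers, the counted molecules), were described in mouse gliomas. Only barcodes with 500 or more genes, and with no more than 15% of UMIs from mitochondrial genes, were considered (kept). By this rule 1293 of 6784 kept barcodes were members, 725 of 3506 in pool 1 and 568 of 3278 in pool 2. The gliomas were induced in C57BL/6 mice by somatic transfer of PDGFB, a ligand of the receptor Pdgfra, into the telencephalic ventricles of embryos, and were collected about 40 days after birth. Tumours were dissociated, and cells were sorted for GFP. Each of the 2 libraries, pool 1 and pool 2, mixed the cells of 2 tumours, whose mice were not told apart, and 4000 cells of each were loaded for droplet 3ʹ RNA sequencing. All tumours carried PDGFB, there was no control group, and n = 2 pools throughout.

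Malat1 is a long noncoding RNA that stays in the nucleus, where it gathers in speckles beside splicing factors, and it is among the most abundant RNAs of brain cells. Messenger RNAs of ribosomal proteins, metabolic enzymes and the cytoskeleton are mostly cytoplasmic, whereas unspliced and intron-retaining transcripts and many long noncoding RNAs stay in the nucleus. Transcripts of the mitochondrial genome are made and kept inside mitochondria, outside both nucleus and cytosol. PDGFB-driven gliomas resemble oligodendrocyte precursors, the glial cells that express Pdgfra.

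Malat1 lies at chr19:5795690-5802672 on the minus strand (GRCm38, GENCODE vM21), and its transcript Malat1-201 is 6983 bases long. Its mature end is known not to be an ordinary poly(A) tail but an encoded A-rich tract held in a triple helix with U-rich stretches just upstream. That end is shown because the libraries were made from polyA RNA, and because Malat1 chose the members. Bases 6575 to 6705 of the transcript are printed 5′ to 3′ as annotated, with the longest run of A, 12 bases at 6674 to 6685, in capitals.
Malat1 3′ end: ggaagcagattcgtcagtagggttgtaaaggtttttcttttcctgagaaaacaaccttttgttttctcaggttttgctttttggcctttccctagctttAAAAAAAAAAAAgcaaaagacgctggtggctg
A run of 12 or more A in any annotated transcript was held by 2092 of the 10996 tested genes that have a transcript in the annotation, or 19.0%. The longest run was 16 bases in Meg3, 7 in Neat1 and 4 in Miat, which are other nuclear long noncoding RNAs described here. A run of A is a description of the sequence and was not tested as a priming site.

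The share of Malat1-rich barcodes among those kept was 20.7% in pool 1, with a 95% Clopper-Pearson range from 19.4 to 22.1, and 17.3% in pool 2, from 16.1 to 18.7, a mean of 19.0% ± 2.37 (SD, n = 2 pools). The intervals cover counting error only, and 2 libraries allow no test between pools. Members were shallow: their median totals were 3446 and 2910 UMIs in the respective pools, whereas they were 11095 and 13242 in barcodes with Malat1 under 5%, here called Malat1-poor. Between 2000 and 4000 UMIs, members made up 48.0% of kept barcodes in pool 1 and 59.6% in pool 2. Between 8000 and 16000 UMIs they made up 3.84% and 3.41%. Below 2000 UMIs the shares were 26.0% and 35.2%, so the share was highest among shallow barcodes but not among the shallowest. Another 49 and 54 barcodes reached 10% Malat1 but failed a filter on genes or mitochondrial UMIs, and only 4 barcode sequences occurred in both pools. Median Malat1 was 13.6% and 13.9% of UMIs in members, and the highest barcodes held 30.3% and 35.4%.

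**Figure D1:**
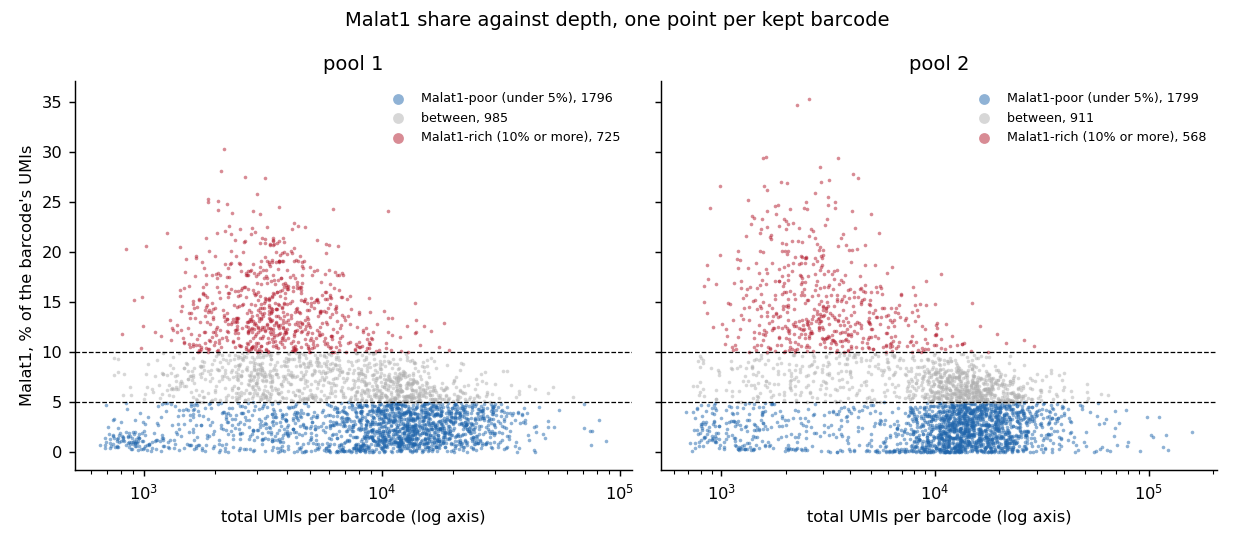
Malat1 as a percentage of UMIs (y axis) against total UMIs (x axis, log scale), 1 point per kept barcode of each pool. Dashed lines mark 5% and 10%. Most of the 725 and 568 Malat1-rich points lie between 2000 and 8000 UMIs, to the left of most Malat1-poor points.

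The limit of 10% cut a continuous range. Just outside it, at 9 to 10% Malat1, 124 and 89 barcodes had median ribosomal protein shares of 3.76% and 5.62% and mitochondrial shares of 4.36% and 3.32%. Just inside, at 10 to 11%, 116 and 86 barcodes had 3.70% and 4.95% ribosomal and 5.01% and 3.97% mitochondrial. These neighbours are given with no test. Here and below, ribosomal protein and mitochondrial shares are of the UMIs other than Malat1.

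Because members were shallow, each was paired with a Malat1-poor barcode of its own pool with nearly the same total UMIs (within 0.05 on the log10 scale). This gave 459 pairs in pool 1 and 318 in pool 2. The 266 and 250 members without a partner had median totals of 3156 and 2806 UMIs and are described at the end. In the pairs, Malat1 was 13.8% and 13.5% of summed UMIs in the rich sums and 2.36% and 2.20% in the poor sums, a difference set by the rule. Malat1 was left out of all that follows.

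Matched Malat1-rich barcodes held less ribosomal protein mRNA and more mitochondrial RNA. The median ribosomal share was 3.35% in Malat1-rich and 7.22% in Malat1-poor barcodes of pool 1, and 4.27% and 12.4% in pool 2. The mitochondrial share went the other way, with 5.48% against 3.29% in pool 1 and 3.83% against 1.58% in pool 2. Both differences had the same direction in both pools, and 2 values against 2 cannot go below an exact permutation p of 0.333, so no test is given. In barcodes thinned to 1000 UMIs, Malat1-rich ones held slightly more genes, at medians of 775 against 762 and 761 against 728. Deep enough for this were 450 rich and 452 poor barcodes of pool 1 and 295 and 307 of pool 2, and unthinned medians were 2018 against 2110 genes and 1738 against 1758.

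At one depth, 2000 to 5000 UMIs, both shares differed along the whole range of Malat1. The ribosomal share fell from 7.52% and 14.6% in barcodes with under 2.5% Malat1 to 3.52% and 4.06% at 5 to 10%, and was 2.76% and 3.13% at 20% or more. Most of that descent lay below the limit that defines members, and in pool 2 the share was level from 5 to 15% Malat1. The mitochondrial share stood at 3.61% and 2.66% in the lowest band and at 7.52% and 4.68% in the highest, with 1 step down in pool 2, from 4.17% at 5 to 10% to 3.62% at 10 to 15%. Mitochondrial RNA is not nuclear, so these barcodes are named here by Malat1 alone and not by nuclear RNA.

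**Figure D2:**
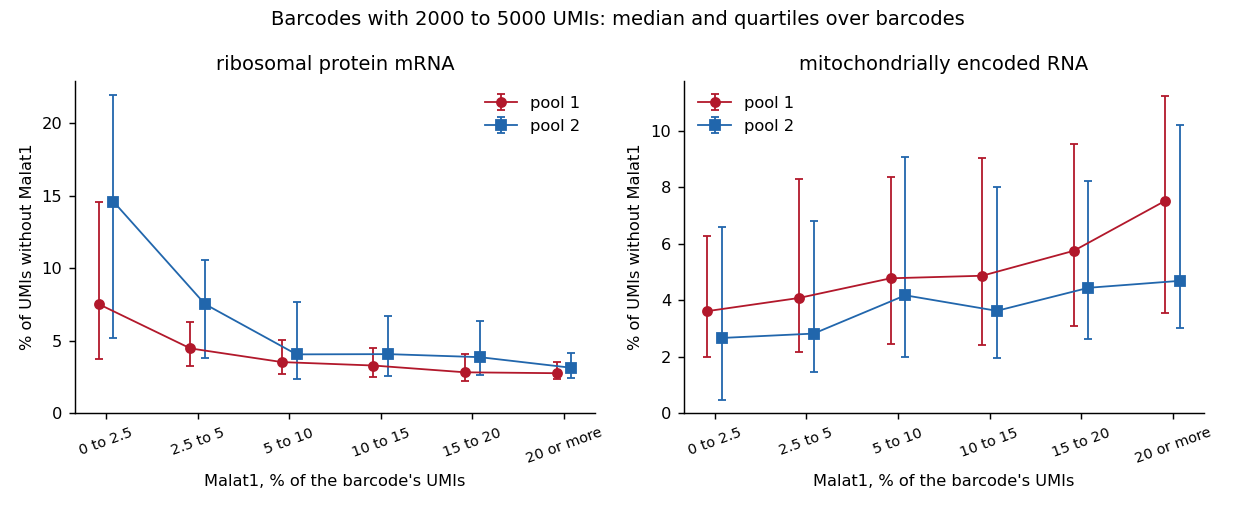
Median share of UMIs without Malat1 (y axis) taken by ribosomal protein mRNA (left) and by mitochondrially encoded RNA (right), by Malat1 band (x axis), in barcodes with 2000 to 5000 UMIs. Bars span the quartiles over barcodes; in both pools the ribosomal median is lowest and the mitochondrial median highest at 20% Malat1 or more.

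For each gene, UMIs were summed over the paired barcodes of a class in each pool, which gave 4 sums of 1236826 to 2024404 UMIs. The edgeR quasi-likelihood test with the pool as a block was applied to 11075 genes with Benjamini-Hochberg adjustment. Against matched Malat1-poor barcodes, 1942 genes (17.5%) were higher in Malat1-rich ones and 2298 (20.7%) were lower at an adjusted p under 0.05. Of these 4240 genes (38.3%), 4220 had the same direction in each pool, as did 8596 of all 11075 tested. The 4240 were called from these same 2 pools, so their agreement is no independent check. By at least 2-fold, 488 rose and 876 fell. Without the pool block 390 (3.52%) were higher and 1001 (9.04%) lower, and DESeq2 gave 383 (3.46%) and 1108 (10.0%). Scaled to plain library totals, 3493 genes (31.5%) were higher and 1545 (14.0%) lower, 45.5% in all, and the median of all genes moved by 0.24 on the log2 scale. The 4 sums leave 1 residual degree of freedom, and edgeR pooled the spread strongly over genes (11080 degrees of freedom in all for a gene). Each p therefore rests on the trend of all genes. With the pool as a block, that spread is of the difference between classes from 1 pool to the other, in these 2 pools only. When members were chosen on 1 random portion of the UMIs and tested on the other, 1306 genes were higher and 1731 lower, of 9640 tested. Gene levels below are CPM (UMIs scaled to a common library total) without Malat1 after TMM scaling, in the order pool 1, pool 2, and differences are log2 fold changes ± SE. Where classes are said not to overlap, the genes were picked by p, by size of change or after their values were seen. The share of all 11075 genes without overlap is not given here, so such statements describe single genes only.

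Nuclear-retained long noncoding RNAs rose as a group. Of 16 tested, 14 were higher and none was lower, with a median of 0.98 against 0.04 over all genes tested. Meg3, an imprinted RNA of the Dlk1-Dio3 region, stood at 1134 and 809 CPM in the Malat1-rich sums and at 388 and 294 CPM in the Malat1-poor sums. Both rich sums were above both poor sums, a log2 difference of 1.51 ± 0.11 (adjusted p = 5.53e-38, edgeR). Kcnq1ot1, the antisense RNA that silences the Kcnq1 imprinted domain, stood at 844 and 631 against 481 and 208 CPM. Its groups did not overlap either (1.15 ± 0.11), but it missed the threshold without the pool block (adjusted p = 0.0789). Rian, from the same imprinted region as Meg3, was higher by 1.25 ± 0.15 and Snhg14, the long RNA antisense to Ube3a, stood at 152 and 140 against 82.8 and 61.5 CPM (adjusted p = 4.74e-10). Firre, an X-linked chromatin-bound RNA, rose from 11.8 and 3.24 CPM to 39.5 and 27.0 CPM (2.06 ± 0.33, adjusted p = 6.00e-09).

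Neat1, the scaffold of paraspeckles, was far less abundant, with 145 and 87 UMIs in the rich sums and 69 and 54 in the poor sums (0.85 ± 0.19). Miat rose by 0.83 ± 0.24, and Tug1 (0.06 ± 0.17) and Airn (0.37 ± 0.46) did not pass. Tsix, which overlaps Xist on the other strand, had UMIs only in pool 1, 817 against 219, and whether reads were assigned by strand is not given in the sources used here. Without the block 6 of the 16 passed and by DESeq2 5, none of them lower. The list's members were chosen with earlier results of these data known, as were all lists below.

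Splicing factors and kinases known for nuclear-retained transcripts rose in 19 of 30 cases and fell in 2, with a median of 0.40. Clk1, a kinase of SR splicing factors, stood at 242 and 295 CPM in the rich sums and at 110 and 128 CPM in the poor sums. The groups were separate, with a difference of 1.17 ± 0.13 (adjusted p = 1.79e-17). Ogt, which attaches O-GlcNAc to nuclear and cytosolic proteins, rose by 1.12 ± 0.13, and Pnisr, an SR-related speckle protein, by 0.87 ± 0.11. Snrnp70, of the U1 particle, rose by 0.74 ± 0.11. The SR factors Srsf3 (-0.41 ± 0.11) and Srsf2 (-0.35 ± 0.12) went down. Without the block 5 of the 30 were higher and none lower.

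Chromatin and transcription regulators were higher in 20 of 30 cases and lower in none, with a median of 0.40. Nsd3, a histone H3K36 methyltransferase, stood at 158 and 126 CPM against 105 and 63.2 CPM (0.74 ± 0.15), and the chromodomain helicase Chd9 at 203 and 157 against 124 and 91.5 CPM (0.74 ± 0.14). Kmt2c, an H3K4 methyltransferase, was higher by 0.65 ± 0.13 and Chd6 by 0.57 ± 0.13. Values did not overlap between classes for any of these 4 genes. Without the block none of the 30 passed, and by DESeq2 7 were higher and none lower.

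Synaptic adhesion and channel genes, which oligodendrocyte precursors also express, were higher in 25 of 30 cases and lower in 1, with a median of 0.63. Nrxn3, a presynaptic adhesion molecule, stood at 319 and 378 CPM in the rich sums and at 146 and 138 CPM in the poor sums, a difference of 1.27 ± 0.13 (adjusted p = 2.60e-22). Gria2, the AMPA receptor subunit that limits calcium entry, was the most abundant of the 4 genes named from this list, at 2606 and 3165 CPM against 1503 and 1248 CPM (1.06 ± 0.11). For both genes the lowest rich sum lay above the highest poor sum. Csmd3 rose by 1.24 ± 0.13, and Cacna1e, the pore subunit of R-type calcium channels, by 1.45 ± 0.16. Kcnip3, a calcium-binding partner of potassium channels, was the member that fell (-0.28). Without the block 10 of the 30 were higher and none lower.

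The cytosolic translation machinery was lower without exception among ribosomal proteins: 81 of 81 genes fell, by 0.74 to 1.79 on the log2 scale, with a median of -1.56. Rpl32, of the large subunit, stood at 493 and 732 CPM in the rich sums and at 1643 and 2574 CPM in the poor sums. Every poor sum was over every rich sum, and the difference was -1.78 ± 0.11 (adjusted p = 1.88e-53). Rps26, of the small subunit, stood at 380 and 554 against 1216 and 1951 CPM (-1.75 ± 0.11). The 81 were taken by gene name, which also admits like-named genes such as the L7-like Rpl7l1. Rpl7l1 fell least (-0.74), while the other 80 lay at -1.30 or below. Many ribosomal protein genes have near-identical processed pseudogenes, and how such reads were assigned is not given in the sources used here. Of the 22 translation factors tested, 21 fell, with a median of -1.26. Tpt1, an abundant translationally controlled protein, went from 3925 and 5436 CPM in the poor sums to 1394 and 1890 CPM in the rich ones (-1.51 ± 0.11). Btf3 (-1.67 ± 0.12) and Naca (-1.53 ± 0.11), the paired subunits of the nascent chain complex, fell alike. Eif4a2, an RNA helicase of initiation, was the exception, at 317 and 227 against 305 and 273 CPM (-0.09 ± 0.12, adjusted p = 0.591).

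Nuclear-encoded and mitochondrially encoded genes of oxidative phosphorylation went opposite ways. All 43 nuclear-encoded subunits tested were lower, by 1.01 to 1.68, with a median of -1.31, also without the block and by DESeq2. Atp5e, a subunit of ATP synthase, stood at 202 and 247 CPM in the rich sums against 607 and 850 CPM in the poor ones (-1.68 ± 0.12), and Cox7b, of cytochrome oxidase, at 123 and 187 against 373 and 586 CPM (-1.63 ± 0.12). The values of the classes were separate in both cases. All 13 genes of the mitochondrial genome were higher, by 0.33 to 0.83, with a median of 0.63. mt-Co1, of the same cytochrome oxidase, stood at 6763 and 5589 CPM against 4928 and 3081 CPM (0.66 ± 0.11, adjusted p = 6.92e-08). mt-Nd4, of complex I, stood at 3334 and 2117 against 2237 and 1038 CPM, so that the pool 2 rich sum lay below the pool 1 poor sum (0.79 ± 0.11). Without the block only 1 of the 13 passed. The filter at 15% capped mitochondrial UMIs in both classes.

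Other abundant cytosolic mRNAs were lower as well. All 21 proteasome genes fell (median -1.16), among them Psmb5, a catalytic subunit, from 281 and 345 to 81.9 and 130 CPM (-1.59 ± 0.13). All 22 genes of the cytoskeleton list fell (median -1.09), a list that also holds the lipid-binding proteins Fabp5, Fabp7 and Dbi. Tmsb4x, which binds free actin, went from 1611 and 2896 CPM to 613 and 857 CPM (-1.58 ± 0.11), and Vim, the intermediate filament protein vimentin, from 417 and 742 to 121 and 180 CPM (-1.92 ± 0.12). The 2 classes did not overlap in any of these genes. In glycolysis 10 of 15 enzymes fell and none rose (median -0.83), among them Gapdh at 232 and 345 against 642 and 737 CPM (-1.29 ± 0.11). Endoplasmic reticulum and secretion genes fell in 22 of 27 cases and rose in none (median -0.58). Sec61g, a small translocon subunit, fell by 1.53 ± 0.12 and Spcs1, a signal peptidase subunit, by 1.31 ± 0.13 on the log2 scale. Sec61a1, the channel itself, did not pass (adjusted p = 0.997).

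**Figure D3:**
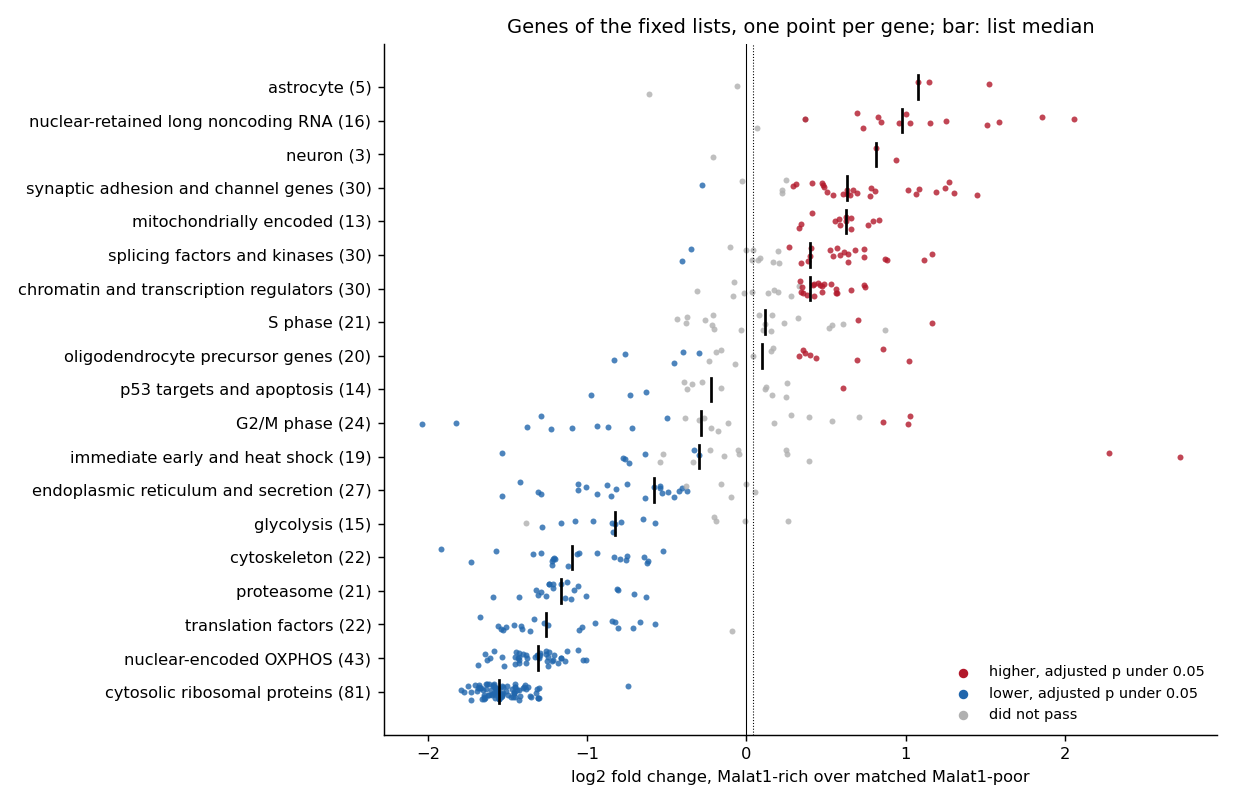
Log2 fold change of Malat1-rich over matched Malat1-poor barcodes (x axis) for each tested gene of the lists (y axis, number of tested genes in brackets). Red and blue points passed as higher and lower, grey points did not pass, bars are list medians, and the dotted line is the median of all 11075 genes; 81 of 81 ribosomal protein genes lie left of 0 and 13 of 13 mitochondrially encoded genes right of 0. The microglia and mature oligodendrocyte lists are not drawn.

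**Figure D4:**
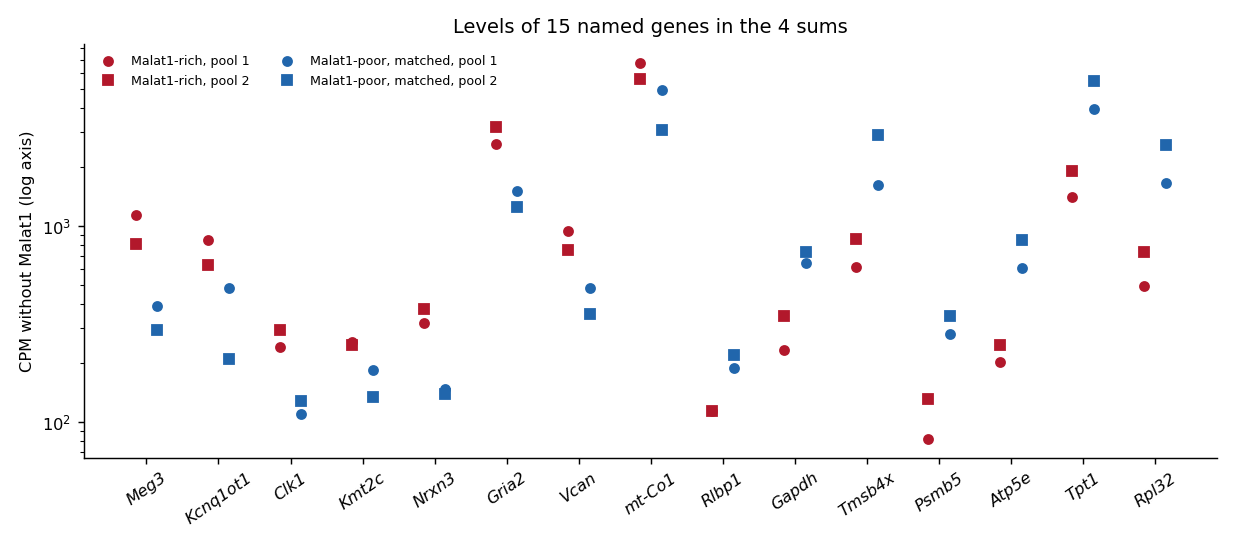
CPM without Malat1 (y axis, log scale) of 15 genes (x axis) in the 4 sums; red is Malat1-rich and blue matched Malat1-poor, circles are pool 1 and squares pool 2. Meg3 to Vcan are higher in both red sums than in both blue sums, Rlbp1 to Rpl32 are lower, and mt-Co1 is higher in both red sums too.

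The identity of the barcodes was checked with markers. Oligodendrocyte precursor genes were present in both classes, with summed levels of 20060 and 18060 CPM per total in the rich sums and 15750 and 12810 in the poor sums. Of 20 genes, 8 were higher and 5 lower, and the list median was 0.10, with 0.11 in pool 1 and -0.14 in pool 2. Pdgfra, the receptor of PDGFB, stood at 2171 and 2506 CPM against 1757 and 1692 CPM (0.43 ± 0.11). Vcan, a secreted proteoglycan, showed the most marked rise, at 939 and 754 against 481 and 354 CPM (1.02 ± 0.11), and Tnr, the matrix protein tenascin-R, rose by 0.70 ± 0.11. The transcription factors Olig2 (-0.40 ± 0.11) and Sox10 (-0.45 ± 0.12) went down, as did Rlbp1 (-0.83 ± 0.13) and C1ql1 (-0.76 ± 0.12). Without the block 1 of the 20 was higher and 1 lower.

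Single barcodes of other cell types set the extremes of the comparison. Among the 10 genes with the largest rise were the myelin or mature oligodendrocyte genes Mal, Ptgds, Mag, Mog, Mobp and Mbp. Mal, a myelin protein, had 252 and 705 UMIs in the rich sums and 1 and 1 in the poor sums, and the highest single barcode held 99.2% and 54.8% of the rich UMIs. Of 777 matched members, 6 had at least 5 UMIs of mature oligodendrocyte markers, and of 777 matched Malat1-poor barcodes none had. The microglial genes Ctss, Tyrobp, C1qa, C1qb and C1qc led the falls, with 0 and 0 UMIs of Ctss in the rich sums against 33 and 106 in the poor sums. Microglia markers reached 5 UMIs in 1 matched member and in 13 matched Malat1-poor barcodes, markers of committed precursors in 5 and 0, and astrocyte markers in 6 and 4. Vascular markers summed to 12 and 14 UMIs over all matched members and all matched Malat1-poor barcodes, and no erythroid UMI was found in either.

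The comparison was therefore repeated without barcodes that had 5 or more UMIs of one such type, with 450 and 306 pairs. This was added after the data were seen. It gave 1819 higher (16.8%) and 2227 lower genes (20.5%) of 10859, 37.3% in all. Mbp (0.33, adjusted p = 0.158) no longer passed, and Mal, Ptgds, Mag, Mog and Mobp were not among its tested genes. Barcodes were left out for UMIs of such markers, so the loss of myelin genes follows largely from that choice. Ribosomal proteins (81 of 81 lower), nuclear-encoded oxidative phosphorylation (43 of 43 lower) and mitochondrially encoded genes (13 of 13 higher) had the same counts, and 12 of 16 nuclear long noncoding RNAs were higher.

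In that comparison the heat shock genes Hspa1b (2.57) and Hspa1a (2.15) were among the 10 genes with the largest rise. They are near-identical copies, so reads may have been divided between them. Hspa1a had 195 and 118 UMIs in the rich sums of all pairs against 20 and 41, but 1 barcode gave 41.0% and 52.5% of the rich UMIs. Also among the 10 were, with values and differences of all pairs from here on, the long noncoding A230057D06Rik, at 66.4 and 64.0 CPM in rich against 20.6 and 11.3 in poor sums, and Ncapd3, a subunit of condensin II, at 92.4 and 55.5 against 23.7 and 18.6 CPM (1.82 ± 0.22). The very long genes Sgcz, Sgcd and Ccser1 were also among the 10 with the largest rise. Sgcz, a sarcoglycan gene spanning 1139000 bases, stood at 161 and 175 CPM against 56.6 and 47.0 CPM (1.67 ± 0.16). The RNA 1500015A07Rik had 105 against 13 UMIs in pool 1, where 1 barcode held 81.9% of the rich UMIs, and 11 against 15 in pool 2. Among the 10 genes that fell most were Gpx3, a secreted glutathione peroxidase (-2.32 ± 0.26, and -2.15 without other types), and Selenoh, a nucleolar selenoprotein, at 72.4 and 56.3 against 241 and 283 CPM (-1.98 ± 0.14). Rpl9-ps6, a model of an Rpl9 pseudogene that may share reads with Rpl9, was at -1.90 in all pairs and at -2.05 without other types.

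Few markers of neurons and astrocytes could be tested. Of 3 neuronal genes, 2 were higher. Snap25, of the vesicle fusion machinery, stood at 92.9 and 185 CPM against 52.4 and 89.9 CPM (0.94 ± 0.15) and Gad1, which makes GABA, was higher by 0.81 ± 0.24. Tubb3, the third, did not pass (-0.21 ± 0.23). The neuronal genes Slc17a7, Gad2 and Stmn2 had no UMI in either rich sum, and Rbfox3 had 2 and 1. In the poor sums Slc17a7 had 1 and 1, Gad2 0 and 0, Stmn2 2 and 1 and Rbfox3 4 and 0. Syt1 had 12 and 5 UMIs in the rich sums and 10 and 3 in the poor sums. Of 5 astrocyte genes tested, 3 were higher before and none of 2 after barcodes of other types were left out. Those barcodes were picked by UMIs of markers of their type, so this change follows largely from that choice.

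Cell cycle genes moved unevenly, where 17.5% of all genes tested were higher and 20.7% lower. Of 24 G2/M genes, 10 were lower and 3 higher, with a median of -0.28. Ccnb2, a mitotic cyclin, had 25 and 4 UMIs in the rich sums and 79 and 33 in the poor sums (-2.04 ± 0.33). Cenpa, the centromeric histone, stood at 46.0 and 13.9 CPM against 84.3 and 78.6 CPM (-1.38 ± 0.20). Top2a (0.86 ± 0.14), Kif20b (1.01 ± 0.26) and Anln (1.03 ± 0.40) were the 3 that rose, named after their values were seen. By pool, Top2a differed by 1.22 and 0.13, Kif20b by 0.97 and 0.99 and Anln by 0.56 and 1.83. Without barcodes of other types 2 rose and 10 fell, and Anln no longer passed (0.62, adjusted p = 0.255). Without the block 2 were lower and none higher. Of 21 S phase genes, Hells (1.16 ± 0.25) and Clspn (0.70 ± 0.27) rose and none fell, both counts below the shares over all genes. Without barcodes of other types 3 S phase genes rose and 1 fell. When all members were set against all Malat1-poor barcodes without matching, 24 of 24 G2/M genes and 21 of 22 S phase genes were lower, where 27.3% of 13965 genes tested were higher and 28.8% lower, 56.0% in all. That setting changed both the members and the barcodes they were compared with, and the part of depth in it was not tested.

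Stress and death genes were called in both directions, and over all genes 17.5% were higher and 20.7% lower. Of 19 immediate early and heat shock genes, 7 fell and 2, Hspa1a and Hspa1b, rose, with a median of -0.29. The constitutive chaperones Hspa8 (-0.76 ± 0.11) and Hsp90aa1 (-0.64 ± 0.11) were among those lower. Without barcodes of other types 4 of 18 fell and 3 rose, and the list median was -0.002. There the early genes Fos (adjusted p = 0.374) and Btg2 (adjusted p = 0.938) no longer passed, Zfp36 was not among the tested genes, and Fosb passed as higher (0.64). Of 14 p53 and apoptosis genes, Bax (-0.98 ± 0.12), Phlda3 (-0.63 ± 0.13) and Aen (-0.73 ± 0.18) fell and Mdm2, the p53 ubiquitin ligase, rose (0.61 ± 0.19). These 3 lower and 1 higher of 14 lie near or below the shares over all genes, and without barcodes of other types 5 fell and 1 rose.

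The differences followed the genomic length of genes, which the rule did not use. Over genes shorter than 5 kb the median log2 difference was -0.61, and 49.8% of 1203 genes were lower and 6.73% higher. From 5 to 20 kb it was -0.23, from 20 to 50 kb 0.06, from 50 to 100 kb 0.24 and from 100 to 300 kb 0.36. Over 300 kb it was 0.62, and 59.7% of 402 genes were higher and 2.74% lower. The medians of the shortest and longest bins were -0.59 and 0.55 in pool 1 and -0.60 and 0.65 in pool 2. The order of the bins was the same when the ribosomal, oxidative phosphorylation and 6 other lists were left out (-0.55 to 0.60), and in the highest expression tercile (-1.01 to 0.62) and the lowest (-0.20 to 0.63). With plain library totals the bins ran from -0.37 to 0.86. Among biotypes, 32.9% of 428 long noncoding genes were higher and 10.5% lower, against 16.9% and 21.2% of 10552 protein-coding genes. Not every noncoding RNA rose: Gm17750, Gm10076 and Lockd were lower by 1.81, 1.73 and 1.67. Genes are not replicates, so these medians carry no test, and whether intronic reads were counted is not given in the sources used here.

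**Figure D5:**
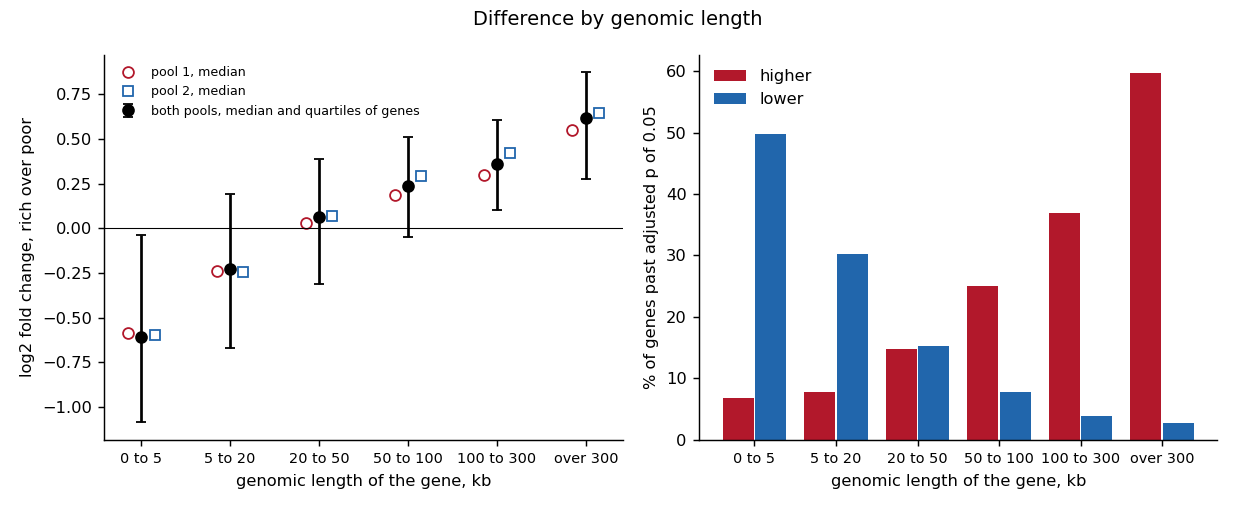
Left, median log2 fold change (y axis) by genomic length of the gene in kb (x axis), with bars for the quartiles over genes and open symbols for the median in each pool. Right, percentage of genes past an adjusted p of 0.05 as higher (red) or lower (blue); the lower share is greatest under 5 kb (49.8%) and the higher share over 300 kb (59.7%).

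Whether the differences depended on depth was asked by splitting members at their median total UMIs in each pool, with their own partners, and testing the class by depth interaction (edgeR, 8 sums, 2 residual degrees of freedom). Of 10134 genes, the difference was higher in the deeper pairs for 32 (0.316%) and lower for 27 (0.266%), 0.582% in all. Without barcodes of other types it was higher for 17 (0.172%) and lower for 20 (0.203%) of 9865. Without the block none passed in either direction, and 520 genes had an unadjusted p under 0.05 against 1095 with it.

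G2/M genes were the list with most interaction calls, 6 of 24, with and without barcodes of other types (22 tested in the second case). Mki67, the proliferation marker Ki-67, was lower in rich than in poor shallow pairs, by 1.83 and 1.54 on the log2 scale, and stood at 0.38 and -0.60 in deep pairs (interaction 1.89 ± 0.31, adjusted p = 1.69e-05). Top2a, Cenpe, Cenpf, Nusap1 and Kif11 were the other 5. Summed over the list, the shallow sums held 855 and 695 CPM per total in rich and 2081 and 1413 in poor barcodes, and the deep sums 1783 and 452 against 1275 and 631. In shallow pairs rich barcodes were below poor ones in both pools, and in deep pairs the pools differed in direction. Prc1, which bundles the spindle midzone, had 19 and 7 UMIs in shallow rich sums against 55 and 35 in poor ones, and 165 and 30 against 101 and 19 in deep sums, all without other types (2.28 ± 0.38).

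Neat1 was the 1 nuclear long noncoding RNA of 14 with an interaction call. It differed by -0.19 and -0.15 in shallow and by 1.64 and 0.89 in deep pairs (1.56 ± 0.38, adjusted p = 0.0210), and it did not pass without barcodes of other types. Ribosomal protein genes gave no interaction call of 81, although their median difference was -0.81 and -1.35 in shallow and -1.61 and -1.71 in deep pairs. Ntm, a neural adhesion gene, went the other way, with 1.14 and 2.03 in shallow and 0.60 and 0.36 in deep pairs (-1.06 ± 0.23). Hspa1a (2.89 ± 0.65) and Hspa1b (3.95 ± 1.04) passed with all barcodes and not without those of other types. Med31 and Pigp were among the genes with the most negative interaction (-1.98 for each), with values above 0 in shallow and below 0 in deep pairs of both pools.

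Members also varied among themselves. Split at their median mitochondrial share, the upper members held 98310 and 84920 CPM per total of mitochondrially encoded RNA and the lower ones 27470 and 20270. The nuclear long noncoding list hardly differed between them, at 4068 and 2579 against 3957 and 2375. Ribosomal protein mRNA was lower in the upper members, at 32300 and 45760 against 51820 and 62930. Members without a partner held 4378 and 2658 CPM per total of nuclear long noncoding RNA, against 4012 and 2473 over all members. Their ribosomal level was 33430 and 48870, below the 42220 and 54680 of all members.

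With Malat1, Meg3 climbed band by band at the fixed depth of 2000 to 5000 UMIs, from 316 and 158 CPM per total under 2.5% Malat1 to 968 and 771 at 5 to 10% and 1602 and 1712 at 20% or more. Synaptic adhesion and channel genes went from 8313 and 6115 to 14990 and 13820 and to 17000 and 18100 over the same 3 bands. Neat1 showed no such climb, with 37.5 and 87.2 CPM per total in the lowest band, 76.4 and 148 at 5 to 10% and 86.1 and 91.6 in the highest.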

How the data were processed

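Single-cell RNA of 2 pools of sorted glioma cells was measured as UMI counts per gene and barcode, whole numbers deposited by the authors without normalization. Per the submitters' processing notes the data were made with Cell Ranger 6.0.2 on mm10. How introns and strand were counted and how cells were filtered was not stated in those notes or labels; no doublet calling was done. Median depth over kept barcodes was 7440 and 11272 UMIs, and 16859 genes were listed in both. Members and gene lists were chosen with earlier results of these data known.

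Barcodes were filtered, classed by Malat1 and matched 1 to 1 by total UMIs in Python 3.11.15, and UMIs were summed per pool and class without Malat1. edgeR 4.0.16 (quasi-likelihood, TMM factors, its default filter on low counts, the pool as a block because both classes of a pool come from the same library and tumours, Benjamini-Hochberg adjustment, threshold 0.05) was the main test, and DESeq2 1.42.0 an alternative. The SE is the log2 difference over the root of F. Differences within a pool use a prior count of 2. Fits were tested on simulated data. The pools were separate libraries of different tumours, and their depth differed, at medians of 7440 and 11272 UMIs over kept barcodes. Tumours, library and any other difference between the pools cannot be told apart. The p-values and SE therefore reflect only the spread in these 2 libraries, pooled over all genes. A gene's own disagreement between the pools hardly enters them.

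Genes named had to pass the threshold on the same side in both pools with a mean of at least 20 CPM: the 10 of largest change in each direction, up to 4 of smallest p per list, the top 3 long noncoding RNAs in each direction, and 5 in each direction for the depth interaction. The first of these was repeated without barcodes of other types. Other genes named were chosen after their values were seen, and 1 gene that met the rule is not reported here. Gene positions and transcripts came from GENCODE vM21 and covered 99.1% of the tested genes.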

Additional observations from a re-analysis of the deposited data

How the results depend on the processing

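The comparison was repeated with other scalings, filters, thresholds and matchings; matching with replacement, leaving out mitochondrial genes and leaving out barcodes of other types were chosen after seeing the data. The cause of each change below was not tested. The 1942 higher genes, of 11075 tested, became 383 with DESeq2 and 3493 with library totals. Members from 15% Malat1 gave 1151 of 9103, and all Malat1-poor barcodes as the comparison gave 3806 of 13965. Thinning to 1000 UMIs gave 692 of 7502, and strict removal of other types 933 of 9730. The 2298 lower genes became 1108 with DESeq2, 4018 against all Malat1-poor barcodes, 1051 after thinning and 1491 with strict removal, of the same numbers tested. Without the replicate block of pools, 390 genes were higher and 1001 lower, the depth interaction gave 0 higher and 0 lower, 6 nuclear long noncoding RNAs and 1 mitochondrially encoded gene were higher, and 0 immediate early and heat shock genes were lower and 2 higher. The 32 genes of 10134 with a higher difference in deep pairs became 18 of 9795 with the outer terciles of depth. They became 55 of 10134 with library totals and 17 of 9865 without other types. The 27 with a lower one became 7 of 10134 with library totals and 17 of 16468 without a filter. The share of members was 7.53% and 6.99% from 15% Malat1, 14.6% and 12.6% with at most 5% mitochondrial UMIs, and 15.7% in pool 2 with 1000 or more genes. The mitochondrial difference of 2.22 percentage points was 2.07 when matched without Malat1 and 0.799 with at most 5% mitochondrial UMIs, and the difference of 23.0 genes per thinned barcode was 7.75 at 500 UMIs. Of the nuclear long noncoding RNAs, 5 of 16 were higher with DESeq2, 8 of 14 after thinning, 7 of 14 with strict removal and 9 of 17 with replacement. With library totals 4 immediate early and heat shock genes were lower and 5 higher. Of S phase genes, 0 were higher and 21 lower against all Malat1-poor barcodes, and 0 higher and 1 lower with the count split. Of mature oligodendrocyte genes, 0 were higher and 1 lower without other types, a setting that left out barcodes by markers of that type. Mbp (-0.17) changed sign with strict removal, Hells (-0.40) and Clspn (-0.87) against all Malat1-poor barcodes, and Slc4a4 (-0.16) with members from 15%. Leaving out either pool leaves 1 library per class and a value with no test: 1500015A07Rik ranged from -0.46 without pool 1 to 2.76 without pool 2. All 43 nuclear-encoded oxidative phosphorylation genes were lower in every setting run.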
